A study of Arabidopsis thaliana with 18 samples.

Results

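WRKY genes encode one of the largest families of plant transcription factors. Here the family was followed through leaves of Arabidopsis thaliana that were kept in air or put under water. Its members were the genes whose name in the table begins with WRKY and a digit and that reached 1 TPM in at least 3 of 18 libraries. TPM gives a gene's share of the transcripts in a library after correction for gene length. This rule kept 55 of the 67 genes so named, among 32833 genes in all. The other 12 (WRKY9, WRKY10, WRKY14, WRKY24, WRKY34, WRKY35, WRKY43, WRKY56, WRKY64, WRKY66, WRKY68 and WRKY74) stayed below it. Nearest to the threshold of 1 TPM in 3 libraries, WRKY9 reached 1 TPM in 2 libraries and WRKY35 in 1, while WRKY49, WRKY59 and WRKY67 were kept with 3 libraries. For WRKY59 and WRKY67 these were the 3 submerged ein3eil1 libraries and no others, so each is a member only through the group in which it is high. The table lists 5 more genes with a WRKY synonym under other names (ABO3, ZAP1, TTG2, TTR1 and RRS1), which the rule leaves out.

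Polyadenylated RNA came from leaves of 4-week-old plants, in 6 groups of 3 libraries. Wild type was set beside a pair of mutant lines. The phyA-211 line is mutated in PHYA, which encodes the far-red light receptor phytochrome A, and ein3eil1 in EIN3 and EIL1, whose products are the main transcription factors of ethylene signalling. Each line was either left in air or submerged for 6 h. The titles of all 18 libraries also carry the word mock, whose meaning the labels do not state. The labels do not give the ein3 and eil1 alleles, the accession, or whether a replicate was 1 plant or a pool, so p-values cover only library-to-library spread, which may be technical.

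WRKY proteins bind DNA through a domain that begins with the residues tryptophan, arginine, lysine and tyrosine and holds a zinc finger. They recognise the W-box, a short element with the core TTGAC, which also occurs in the promoters of many WRKY genes themselves. In leaves they are best known from immunity: receptors of microbial patterns switch on mitogen-activated protein (MAP) kinases, these phosphorylate WRKY factors, and the factors turn on or hold back defence genes, salicylic acid synthesis and camalexin synthesis. Other members act in leaf senescence, phosphate uptake, heat tolerance and oxygen deprivation. By their domains they are sorted into groups I, IIa, IIb, IIc, IId, IIe and III.

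The promoters of 5 members are shown as examples, and they do not represent the family in their number of W-box motifs. WRKY22 had the highest or second-highest rise under water in every line, WRKY30 and WRKY41 were high in submerged ein3eil1, WRKY33 is a hub of defence gene control, and WRKY62 fell in submerged wild type. Each sequence is the 250 bases before the annotated gene start, 5′ to 3′ along the gene, in the RefSeq annotation of TAIR10.1 (the build in the submitters' processing notes is TAIR10). Capitals mark the W-box motifs TTGACC and TTGACT on either strand, where the other strand reads GGTCAA or AGTCAA.
WRKY22 (chr4:524250-524499, minus strand): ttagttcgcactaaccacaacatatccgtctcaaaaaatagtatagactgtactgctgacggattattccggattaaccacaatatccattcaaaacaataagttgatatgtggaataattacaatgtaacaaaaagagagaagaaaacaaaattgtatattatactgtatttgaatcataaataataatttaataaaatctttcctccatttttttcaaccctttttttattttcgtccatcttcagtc
WRKY30 (chr5:8154711-8154960, minus strand): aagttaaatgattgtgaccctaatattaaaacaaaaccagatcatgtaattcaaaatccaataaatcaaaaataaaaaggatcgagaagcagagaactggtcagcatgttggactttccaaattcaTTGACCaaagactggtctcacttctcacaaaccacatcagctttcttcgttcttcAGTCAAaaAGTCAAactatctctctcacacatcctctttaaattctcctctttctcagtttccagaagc
WRKY33 (chr2:16107985-16108234, plus strand): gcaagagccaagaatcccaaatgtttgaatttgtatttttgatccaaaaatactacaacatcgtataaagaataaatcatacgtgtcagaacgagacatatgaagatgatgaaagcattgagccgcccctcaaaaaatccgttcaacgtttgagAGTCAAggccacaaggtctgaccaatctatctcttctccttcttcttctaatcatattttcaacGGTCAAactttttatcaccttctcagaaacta
WRKY41 (chr4:6758848-6759097, plus strand): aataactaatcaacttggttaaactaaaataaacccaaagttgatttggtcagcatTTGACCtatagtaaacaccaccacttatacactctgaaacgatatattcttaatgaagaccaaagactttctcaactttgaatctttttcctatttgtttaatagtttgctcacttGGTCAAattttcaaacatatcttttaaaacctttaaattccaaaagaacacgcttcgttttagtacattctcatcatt
WRKY62 (chr5:352096-352345, minus strand): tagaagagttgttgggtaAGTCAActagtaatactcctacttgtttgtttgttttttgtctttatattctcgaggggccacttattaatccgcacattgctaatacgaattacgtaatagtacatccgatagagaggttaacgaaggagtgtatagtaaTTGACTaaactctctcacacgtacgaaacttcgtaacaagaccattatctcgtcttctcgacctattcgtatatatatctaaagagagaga
WRKY30 had 3 such motifs, which begin 124, 69 and 61 bases before the start, while WRKY33, WRKY41 and WRKY62 had 2 each. No such motif lay in this window of WRKY22, which says only that these letters are not there. Over the family, 22 of 55 promoters (40%) held TTGACC or TTGACT, against 28.5% of 19014 promoters of tested protein-coding genes, and 10 members (18.2%) held at least 2, against 6.4%. The shorter core TTGAC, which includes both longer motifs, was in 54.5% of the members' promoters and 45.2% of all. A match is a stretch of letters and not a measured binding site.

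Facts of the whole series bear on these values. TPM summed to between 996105 and 998620 per library. Read depth cannot be had from it, and values are given without counting intervals. PHYA ranged from 1.2 to 1.83 TPM across phyA-211 air libraries (wild-type air 10.8 to 13.2 TPM), but from 7.5 to 12.8 TPM across submerged phyA-211 libraries (wild type 22.04 to 23.8 TPM). In ein3eil1 air, EIN3 ranged from 26.9 to 28.3 TPM (wild type 55.9 to 61.99 TPM; log2 difference -1.09, limma's adjusted p = 0.0123) and EIL1 from 16.1 to 17.03 TPM (wild type 38.2 to 43.8 TPM; -1.26, adjusted p = 0.000165). EIL1 ranged from 6.9 to 12.5 TPM across submerged ein3eil1 libraries (wild type 65.3 to 69.5 TPM). EIN3 ranged there from 41.6 to 49.4 TPM (wild type 49.6 to 56.98 TPM), a difference that did not pass (adjusted p = 0.423). Libraries of submerged wild type were the most alike (median SD over all tested genes 0.097 in log2) and those of submerged phyA-211 the least (0.36). Replicate 1 of submerged phyA-211 stood apart: its correlation with submerged wild type reached 0.96, above the 0.932 and 0.918 with its own replicates. Whether that library carries the right label was not tested. The 5 leaf mesophyll markers (RBCS1A, RCA, LHCB1.1, CAB1 and LHCB2.1) summed in air to 44069 to 49183 TPM in wild type, 27985, 51541 and 43003 TPM in replicates 1 to 3 of phyA-211, and 25108 to 26506 TPM in ein3eil1. Under water they summed to 38356 to 39589 TPM in wild type, 15080 to 17114 TPM in phyA-211 and 9173 to 20202 TPM in ein3eil1. The 4 root markers summed to at most 0.14 TPM. The vascular and dividing-cell markers were highest in ein3eil1 air, at 128 to 218 TPM and 20.97 to 49.2 TPM against 53.1 to 81.9 TPM and 6.8 to 18.4 TPM in wild-type air. The flower markers AP3, PI, AG and SEP3 summed to 1.23 to 29.7 TPM in phyA-211 air, 2.13 to 65.6 TPM in ein3eil1 air and 6.13 to 35.7 TPM in submerged ein3eil1, and to 1.73 to 6.76 TPM in wild type. The part of these markers in the results below was not tested. In bulk leaves, fewer cells of a type and less RNA per cell cannot be told apart.

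All values below are TPM in replicates 1, 2 and 3, in that order, or mean ± SD (n = 3). A log2 change is the difference between 2 groups' means of log2(TPM + 1), with its standard error. It understates the changes of low genes. A gene is called where limma's adjusted p over 20302 tested genes is under 0.05. All 55 members were among the tested genes. The median of all tested genes itself moved by -0.32 on the log2 scale in wild type under submergence, by 0.07 in phyA-211 and by -0.48 in ein3eil1, so that counts are also given after the libraries were centred on their medians. Shares of all tested genes called were counted only in the main fit and after median centring and quantile normalization. Counts from other alternatives, such as fits without a library, stand without such a share.

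The family's summed level was lowest in phyA-211 air and highest in submerged ein3eil1. It was 1063, 1358 and 1253 TPM in wild-type air, 949, 469 and 592 TPM in phyA-211 air, and 1686, 1691 and 2168 TPM in ein3eil1 air. Under water the wild-type libraries summed to 1446, 1426 and 1427 TPM, those of phyA-211 to 1393, 1904 and 2078 TPM, and those of ein3eil1 to 4235, 5075 and 4357 TPM. The libraries of submerged ein3eil1 lie above all the others, and those of phyA-211 air below all the others. This sum was 0.425% to 0.509% of each submerged ein3eil1 library and 0.047% to 0.0951% of each phyA-211 air library.

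**Figure D1:**
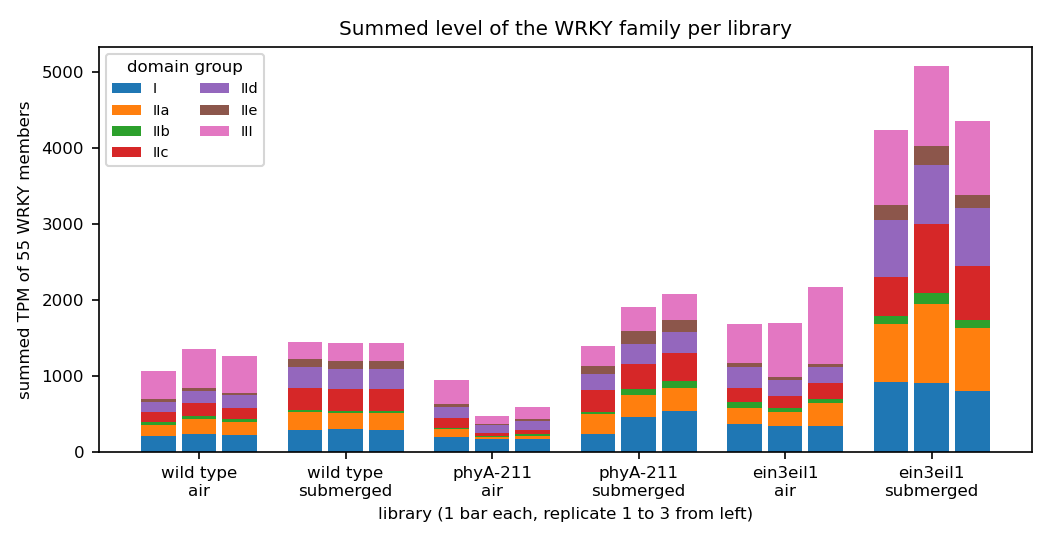
Summed TPM of the 55 WRKY members in each of the 18 libraries (1 bar per library, y axis in TPM), stacked by domain group. The 3 submerged ein3eil1 bars reach 4235 to 5075 TPM, and the phyA-211 air bars end at 469 to 949 TPM.

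The most abundant members differed by group. WRKY70, which acts in the balance of salicylic acid and jasmonate signalling and holds back senescence, was the most abundant member in air in every line, with a mean of 210.6 TPM in wild type (SD 36.3), 89.7 ± 58.7 TPM in phyA-211 and 298 ± 120.5 TPM in ein3eil1. Under water WRKY45, an activator of phosphate uptake, led in wild type, with 198 ± 6.47 TPM, and also led in phyA-211, with 231 ± 33.3 TPM. In submerged ein3eil1 WRKY18, of domain group IIa, led with 529 ± 160.5 TPM, ahead of WRKY15 at 427 ± 11.7 TPM, WRKY33 at 381 ± 27.9 TPM, WRKY75 at 338 ± 115 TPM and WRKY40 at 326 ± 14.2 TPM. Neighbours in these orders often differ by less than their SDs. At the other end, between 3 and 10 members had a mean under 1 TPM in a group, and WRKY67 was listed at 0 in every submerged library of wild type and phyA-211.

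**Figure D2:**
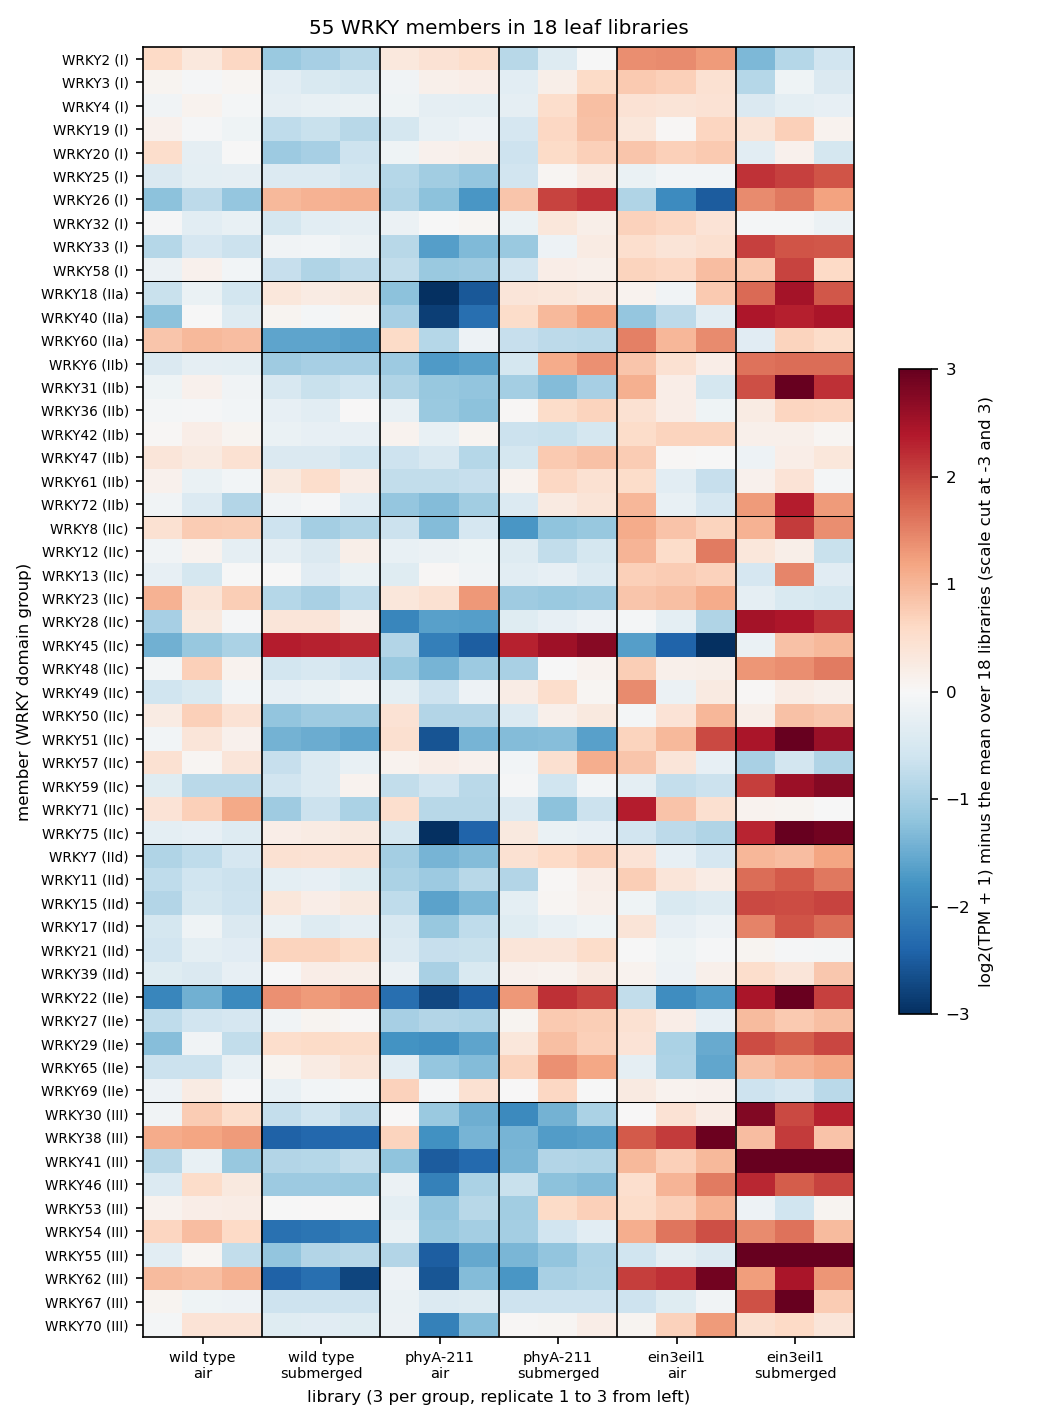
Heat map of the 55 members (rows, by domain group) in 18 libraries (columns), coloured by log2(TPM + 1) minus the member's mean over the 18 libraries, with the scale cut at -3 and 3. Most rows are reddest in submerged ein3eil1, and WRKY38, WRKY54 and WRKY62 are blue in submerged wild type.

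In submerged wild-type leaves WRKY22 and WRKY45 rose most and WRKY38, WRKY54 and WRKY62 fell most. Of the 55 members 10 were called higher and 19 lower, or 18.2% and 34.5%, close to the 18.9% and 38% of all tested genes. The members' median log2 change was -0.17, against -0.32 for all genes. The split turned with scaling: centring on the library median gave 20 higher and 10 lower (all genes 32.2% and 22.3%), and quantile normalization 14 and 11 (26.1% and 26.9%), and without wild-type air replicate 1 it was 6 and 13.

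WRKY45 went from 13.8, 17.3 and 19.6 TPM in air to 205, 197 and 192 TPM under water (3.49 ± 0.40, adjusted p = 2.99e-06). WRKY22, which acts below the flagellin receptor's kinase cascade and has been described as a submergence-induced immune regulator, went from 5.19, 7.83 and 5.36 to 60.3, 57.3 and 60.7 TPM (3.10 ± 0.30, adjusted p = 4.3e-07). In both genes every submerged library was far above every air library. WRKY26, of the heat tolerance trio WRKY25, WRKY26 and WRKY33, rose from 20.1, 27.8 and 21.2 to 96.1, 101 and 102 TPM (2.08 ± 0.36, adjusted p = 0.000176). WRKY29, a close relative of WRKY22, rose from 5.17 ± 2.51 to 13 ± 0.174 TPM (1.26 ± 0.36, adjusted p = 0.00819), and the calmodulin-binding WRKY7 from 11.7 ± 1.74 to 27.5 ± 0.122 TPM (1.17 ± 0.19, adjusted p = 0.000106). WRKY29 missed the threshold in 1 of 15 alternatives (adjusted p up to 0.0503). The remaining members called higher were WRKY15, WRKY21, WRKY27, WRKY39 and WRKY65, with changes from 0.46 to 1.04.

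The largest falls were in domain group III, in which 5 of 10 members were called lower and none higher (all genes 38% and 18.9%). Among these, WRKY30 and WRKY46 lost the call after median centring. WRKY38 and WRKY62, salicylic acid-induced genes that hold back basal defence, dropped to near 0. WRKY38 stood at 21.2, 22.4 and 23.6 TPM in air and 0.9, 0.99 and 1.04 TPM under water (-3.56 ± 0.48, adjusted p = 1.63e-05), and WRKY62 at 16.3, 15.6 and 17.6 TPM in air and 0.66, 0.87 and 0.33 TPM under water (-3.44 ± 0.47, adjusted p = 1.6e-05). WRKY54, a partner of WRKY70 in holding back senescence, went from 49.3, 60.6 and 47.8 to 5.86, 6.04 and 6.56 TPM (-2.90 ± 0.26, adjusted p = 2.52e-07). The groups do not overlap in any of the 3. WRKY60, which forms complexes with WRKY18 and WRKY40, fell from 31.4 ± 1.71 to 4.71 ± 0.102 TPM (-2.51 ± 0.29, adjusted p = 3.61e-06), and WRKY71, a regulator of shoot branching, from 5.73 ± 1.71 to 1.13 ± 0.32 TPM (-1.64 ± 0.42, adjusted p = 0.00393). WRKY70 itself stood at 169, 233 and 231 TPM in air and 136, 138 and 135 TPM under water, and its change of -0.61 did not pass (adjusted p = 0.147), although the libraries do not overlap.

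In phyA-211 the family's balance under water was upward. Here 28 members were called higher and 3 lower (50.9% and 5.45%), against 27.3% and 23.9% of all tested genes. The median change was 0.62 for members and 0.07 for all genes. After median centring the counts were 30 and 4 (all genes 26.9% and 26.7%). Leaving out 1 library at a time gave 24 to 31 members higher and 3 to 6 lower, where 6 came without phyA-211 air replicate 2.

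WRKY22 rose from 4.01, 2.6 and 3.33 to 58.2, 108 and 97 TPM (4.33 ± 0.30, adjusted p = 9.2e-09) and WRKY45 from 20.9, 8.73 and 6.28 to 197, 231 and 264 TPM (4.31 ± 0.40, adjusted p = 2.61e-07). WRKY26 rose from 25.7, 20.3 and 13.9 to 87, 199.9 and 221 TPM (2.95 ± 0.36, adjusted p = 5.53e-06). For these genes replicate 1 was the lowest of the 3 submerged libraries. The group IIa genes WRKY40 and WRKY18, which together with WRKY60 modulate immune and abscisic acid responses, completed the largest rises. WRKY40 went from 30.1, 7.7 and 11.9 to 90.1, 119.8 and 142 TPM (2.94 ± 0.38, adjusted p = 8.76e-06) and WRKY18 from 52.8, 10.5 and 20.8 to 162, 159 and 152 TPM (2.74 ± 0.39, adjusted p = 2.68e-05). The air libraries of WRKY18 were low and uneven, and its submerged values overlap those of submerged wild type (160.1, 151 and 154 TPM).

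Only WRKY23, WRKY2 and WRKY42 were called lower in phyA-211. WRKY23, an auxin-induced gene, went from 3.56, 3.95 and 7.9 to 0.74, 0.69 and 0.72 TPM (-1.77 ± 0.22, adjusted p = 6.47e-06). WRKY2, known from pollen and early embryos, went from 8.48 ± 0.676 to 4.41 ± 1.51 TPM (-0.84 ± 0.21, adjusted p = 0.00313), and missed the threshold in 1 of 16 alternatives. WRKY42, of phosphate signalling, was low throughout, at 0.9 ± 0.225 and 0.24 ± 0.07 TPM (-0.61 ± 0.13, adjusted p = 0.0013). WRKY38, WRKY54 and WRKY62 were not called here: WRKY54 stood at 26.9, 13.8 and 14.9 TPM in air and 14.9, 20.6 and 24.8 TPM under water, and WRKY62 at 6.98, 0.5 and 2.64 TPM in air and 1.64, 3.57 and 3.76 TPM under water. In both, the air and submerged libraries overlap.

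In ein3eil1, 29 members were called higher and 13 lower under water (52.7% and 23.6%), against 17% and 47.3% of all tested genes. The members' median change was 0.64 where that of all genes was -0.48. With median centring 34 were higher and 4 lower (all genes 30.5% and 26.2%), with quantile normalization 33 and 7 (25.2% and 33.1%). Without WRKY59 and WRKY67, 27 of 53 were higher and 13 lower. WRKY55, a gene of group III linked to senescence and defence, had the largest rise, from 3.86, 4.95 and 4.51 to 117, 192 and 207 TPM (4.95 ± 0.33, adjusted p = 5.64e-09). WRKY22 rose from 13.4, 5.59 and 6.3 to 129.8, 185 and 98.5 TPM (3.92 ± 0.30, adjusted p = 2.58e-08). WRKY75, induced by phosphate starvation and in senescence, rose from 29.7, 25.3 and 23.2 to 222, 452 and 339 TPM (3.59 ± 0.43, adjusted p = 3.12e-06). All submerged libraries of these 3 genes exceed every air library by several times.

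WRKY26 and WRKY40 followed. WRKY26 went from 25.4, 12.5 and 7.77 to 131, 148 and 114 TPM (3.17 ± 0.36, adjusted p = 2.19e-06) and WRKY40 from 26.5, 34.7 and 48.4 to 333, 309.6 and 335 TPM (3.16 ± 0.38, adjusted p = 3.33e-06). WRKY40 overlaps AT1G80850 on the opposite strand, and strand is not stated in the protocol. That gene had a mean of 3.10 TPM under water and 7.51 TPM in air. WRKY41 overlaps 3xHMG-box1 in the same way, a gene at 5.36 TPM in air and 5.06 TPM under water while WRKY41 went from 10.1, 8.25 and 10.1 to 68.6, 84.7 and 68.9 TPM (2.84 ± 0.29, adjusted p = 6.7e-07).

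Falls in ein3eil1 were smaller. WRKY2 went from 17.6, 17.8 and 16.2 to 1.77, 2.87 and 3.71 TPM (-2.30 ± 0.21, adjusted p = 1.83e-07) and WRKY23 from 6.05 ± 0.729 to 1.72 ± 0.253 TPM (-1.37 ± 0.22, adjusted p = 6.56e-05). WRKY57, known from drought tolerance and jasmonate-induced senescence, went from 11.4 ± 4.52 to 4.45 ± 0.884 TPM (-1.13 ± 0.28, adjusted p = 0.00241), and WRKY3, of resistance to necrotrophic fungi, from 35.1 ± 4.14 to 15.9 ± 4.18 TPM (-1.12 ± 0.21, adjusted p = 0.000217). The air and submerged libraries of these 4 genes do not overlap. On the opposite strand WRKY2 overlaps CSN6A, which had means of 45.8 TPM in ein3eil1 air and 30.2 TPM under water. The part of its reads in the WRKY2 values was not tested. WRKY71 (-1.17 ± 0.42, adjusted p = 0.0243) was less firm and missed the threshold in 5 of 15 alternatives. Of the 13 members called lower, 9 lost that call after median centring, WRKY71 among them.

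**Figure D3:**
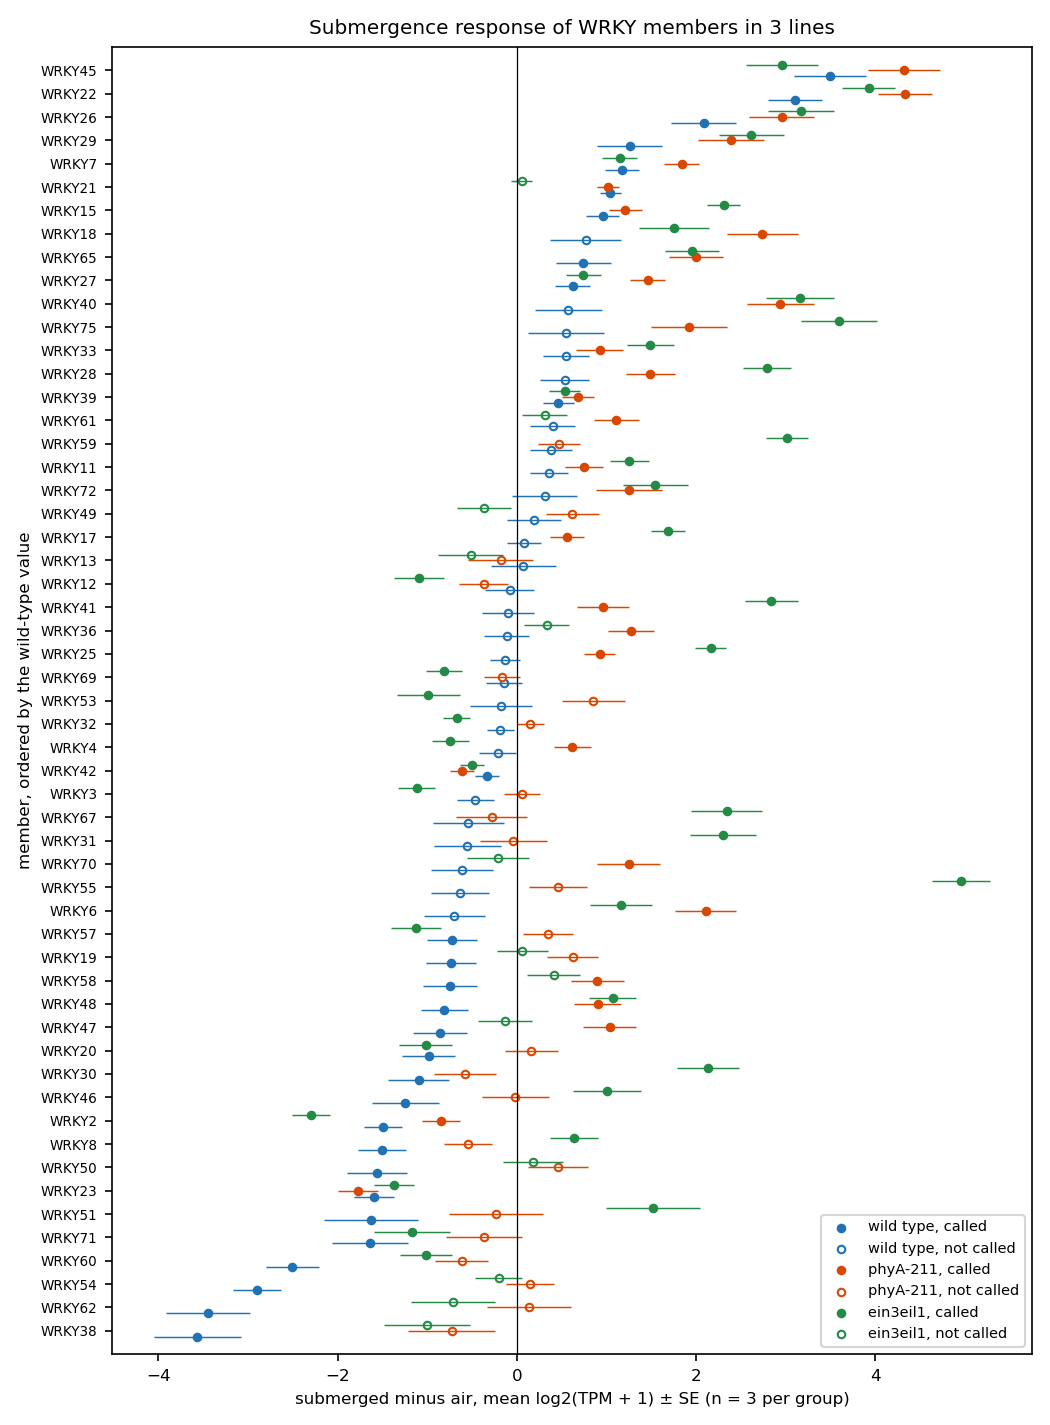
Submergence response of each of the 55 members in wild type (blue), phyA-211 (orange) and ein3eil1 (green), as the difference of mean log2(TPM + 1) between submerged and air libraries with its standard error (n = 3 per group); filled points passed the threshold. WRKY22, WRKY26 and WRKY45 are to the right in all lines, while at the bottom WRKY38, WRKY54 and WRKY62 are at -3.56, -2.90 and -3.44 in wild type.

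Across the 3 lines 9 members were called higher in each: WRKY7, WRKY15, WRKY22, WRKY26, WRKY27, WRKY29, WRKY39, WRKY45 and WRKY65. They include 3 of the 6 measured members of group IId (WRKY7, WRKY15 and WRKY39) and 4 of the 5 of group IIe (WRKY22, WRKY27, WRKY29 and WRKY65). WRKY2, WRKY23 and WRKY42 were called lower in each line, as were 16.4% of all tested genes, although WRKY42 lost its calls in wild type and ein3eil1 after median centring. The commonest pattern, in 11 members, was a call of higher in both mutants and none in wild type (WRKY6, WRKY11, WRKY17, WRKY18, WRKY25, WRKY28, WRKY33, WRKY40, WRKY41, WRKY72 and WRKY75). Of all tested genes 2.83% showed that pattern and 8.02% rose in each line. Of those 11, 7 (WRKY11, WRKY17, WRKY18, WRKY28, WRKY33, WRKY40 and WRKY72) were called higher in wild type as well after median centring. WRKY8, WRKY30, WRKY46 and WRKY51 were called lower in wild type and higher in ein3eil1, as were 0.931% of all tested genes with no call in phyA-211, and only WRKY8 of these 4 kept the wild-type call after centring. WRKY48 was called lower in wild type and higher in both mutants, a pattern of 0.153% of all tested genes.

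In air, WRKY transcripts were lower in phyA-211 than in wild type. Of the 55 members 13 were called lower and none higher (23.6% against 2.38% of all tested genes lower and 1.63% higher), and the median difference was -0.69 against -0.04 for all genes. In 29 members every phyA-211 library was below every wild-type library (52.7%, against 13.9% of all tested genes). With median centring 12 were lower (all genes 2.62%) and with quantile normalization 16 (3.19%), with none higher in either. Of the 13, 6 are of group III, 2 of group IIa, 4 of group IIc and 1 of group I. The same phyA-211 air libraries enter the submergence comparison within phyA-211 and the differences of response, so those results are not independent of this one.

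WRKY62 stood at 6.98, 0.5 and 2.64 TPM in phyA-211 against 16.3, 15.6 and 17.6 TPM in wild type (-2.31 ± 0.47, adjusted p = 0.0101), and WRKY38 at 15.2, 1.89 and 2.91 against 21.2, 22.4 and 23.6 TPM (-2.04 ± 0.48, adjusted p = 0.0252). WRKY18 stood at 52.8, 10.5 and 20.8 against 78.6, 111 and 86 TPM (-1.95 ± 0.39, adjusted p = 0.0102). In all 3 the phyA-211 libraries are below every wild-type library, and replicate 1 is the nearest to wild type. That held for most of the family: replicate 1 was the highest of its group in 35 of 55 members. The same library had the lowest mesophyll sum of its group, given above, and the part of this in the comparison was not tested. WRKY75 (30.6, 4.77 and 7.61 against 36.2, 37.4 and 33.9 TPM), WRKY70 (155, 42 and 71.8 against 169, 233 and 231 TPM), WRKY54, WRKY8, WRKY28, WRKY40, WRKY48, WRKY55, WRKY41 and WRKY25 made up the rest of those called. WRKY40, WRKY70 and WRKY75 lost the call after median centring. Without phyA-211 air replicate 1, 21 members were called. The count was 6 without replicate 2 or replicate 3 of phyA-211 air, 5 without wild-type air replicate 2 and 8 without replicate 3. With only these 6 libraries in the fit it was 6. WRKY38 missed the threshold in 6 of 16 alternatives, WRKY18 in 2 and WRKY62 in 1.

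Under water, differences between phyA-211 and wild type depended on scaling and on single libraries. Of the members 15 were called higher and 1 lower (27.3% and 1.82%), near the 32.7% and 6.44% of all tested genes. With median centring 4 were higher and 10 lower (all genes 11.6% and 20.2%), with quantile normalization 4 and 5 (13.5% and 11.2%). The count called was 24 without submerged phyA-211 replicate 1, and 2 without replicate 2 or replicate 3. It was 4 without submerged wild-type replicate 1 and 7 without replicate 2 or replicate 3. WRKY6, a factor of senescence and phosphate signalling, stood at 14.9, 48.3 and 57.6 TPM against 9.84, 10.4 and 10.4 TPM in wild type (1.68 ± 0.34, adjusted p = 0.00308). WRKY54 stood at 14.9, 20.6 and 24.8 against 5.86, 6.04 and 6.56 TPM (1.53 ± 0.26, adjusted p = 0.00111). Every phyA-211 library was above every wild-type library for both, with replicate 1 the lowest. WRKY62 (1.27 ± 0.47, adjusted p = 0.0425) and the low WRKY42 (-0.39 ± 0.13, adjusted p = 0.0315) missed the threshold in 11 of 16 and 8 of 15 alternatives.

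In ein3eil1 air, 14 members were called higher than in wild type and 1 lower (25.5% and 1.82%), near the 25.6% and 2.73% of all tested genes. After median centring the counts were 2 and 2 (all genes 4.05% and 7.64%). The mesophyll sums of these ein3eil1 libraries were below those of wild-type air, with LHCB1.1, CAB1 and LHCB2.1 called lower, and their part in the comparison was not tested. Without wild-type air replicate 2, 7 were called, and without replicate 3, 9. WRKY41 stood at 10.1, 8.25 and 10.1 TPM against 2.14, 3.85 and 1.57 TPM (1.62 ± 0.29, adjusted p = 0.00208), and its call held in every alternative. WRKY62 stood at 36.9, 39.7 and 65.2 against 16.3, 15.6 and 17.6 TPM (1.42 ± 0.47, adjusted p = 0.0353), a call lost in 11 of 15 alternatives although the libraries do not overlap. WRKY12, which represses secondary wall formation in the pith, stood at 2.39, 1.45 and 3.94 against 0.54, 0.8 and 0.38 TPM (1.14 ± 0.28, adjusted p = 0.00961). Of the vascular markers SUC2, XCP2 and IRX3 were called higher here and XCP1 was not, and any relation to WRKY12 was not tested. The libraries in which WRKY12 reached 1 TPM were all of ein3eil1, so it passed the filter through the line in which it is high. Its call is therefore no support, and the 14 called higher include it. WRKY45 was the member called lower, with 11.7, 6.56 and 3.47 against 13.8, 17.3 and 19.6 TPM (-1.23 ± 0.40, adjusted p = 0.0343).

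Submerged ein3eil1 differed most from submerged wild type. Of the 55 members 35 were called higher and 3 lower (63.6% and 5.45%), against 28.5% and 16% of all tested genes, and the members' median difference was 1.38 against 0.19. After median centring the counts were 31 and 6 (all genes 18.9% and 30.1%). Without WRKY59 and WRKY67, members only through submerged ein3eil1, 33 of 53 were higher and 3 lower. Leaving out any 1 library left 33 to 35 of the 55 called in either direction, against 38. In 44 members every ein3eil1 library exceeded every wild-type library (80% of members, against 42.3% of all tested genes). Among these 44 are WRKY59 and WRKY67, whose lack of overlap follows from how they became members. The mesophyll markers summed lower in these ein3eil1 libraries than in wild type, as given above. Their members differed: RBCS1A and CAB1 were called lower, and RCA, LHCB1.1 and LHCB2.1 were not called.

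**Figure D4:**
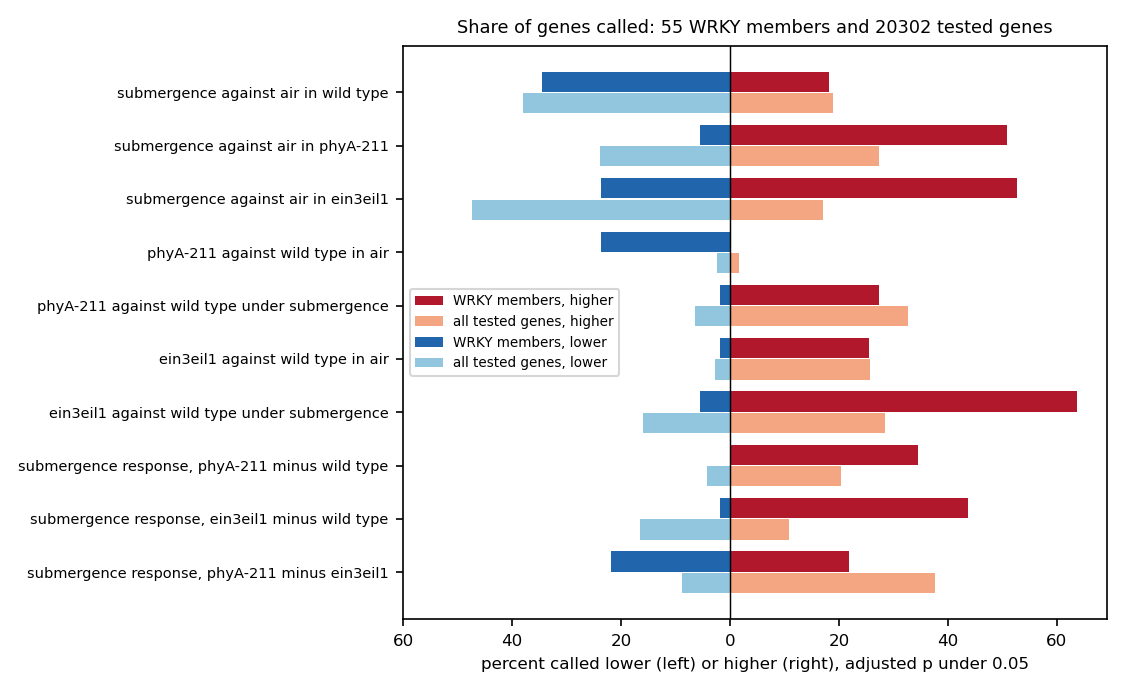
Percent of the 55 WRKY members (dark bars) and of the 20302 tested genes (pale bars) called higher (right) or lower (left) in each of the 10 comparisons. The longest bar is the 63.6% of members higher in submerged ein3eil1 than in submerged wild type, and in phyA-211 air 23.6% of members were lower against 2.38% of all genes.

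Group III and IIc genes made the largest of these differences. WRKY55 stood at 117, 192 and 207 TPM against 2.25, 2.97 and 3.11 TPM (5.48 ± 0.33, adjusted p = 4.27e-09), and WRKY41 at 68.6, 84.7 and 68.9 against 2.04, 2.12 and 2.37 TPM (4.56 ± 0.29, adjusted p = 9.75e-09). WRKY51, which with WRKY50 mediates repression of jasmonate responses, stood at 156, 246 and 172 against 9.8, 9.21 and 8.55 TPM (4.21 ± 0.52, adjusted p = 1.02e-05). The lowest ein3eil1 library is above the highest wild-type one by more than an order of magnitude in each. In group III 8 of 10 members were called higher (all genes 28.5%), with a median difference of 3.32. Both values include WRKY67, a member only through submerged ein3eil1, whose call is no support. The exceptions were WRKY53, a promoter of senescence, at 43.5, 32 and 51.4 TPM in the mutant and 48.5, 48.9 and 48 TPM in wild type, and WRKY70, whose difference of 0.83 did not pass (adjusted p = 0.0637). WRKY55 and WRKY54 are neighbouring genes that point toward each other, and both were higher in submerged ein3eil1, WRKY54 with 85.9, 99.6 and 61.1 TPM (3.51 ± 0.26, adjusted p = 5.53e-08). Reads past the end of one could fall in the other, which the values cannot tell apart.

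WRKY45 was the member with the opposite direction and the largest size. Its submerged libraries read 33.7, 73.1 and 77.8 TPM in ein3eil1 and 205, 197 and 192 TPM in wild type (-1.76 ± 0.40, adjusted p = 0.00229). WRKY21 (-0.64 ± 0.12, adjusted p = 0.000466) and WRKY69 (-0.52 ± 0.20, adjusted p = 0.0436) were the other 2 called lower, and WRKY69 missed the threshold in 8 of 15 alternatives. On the opposite strand WRKY69 overlaps AT3G58720 and AT3G09145. Their means were 8.76 and 0.993 TPM in submerged ein3eil1 and 8.55 and 2.07 TPM in submerged wild type.

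**Figure D5:**
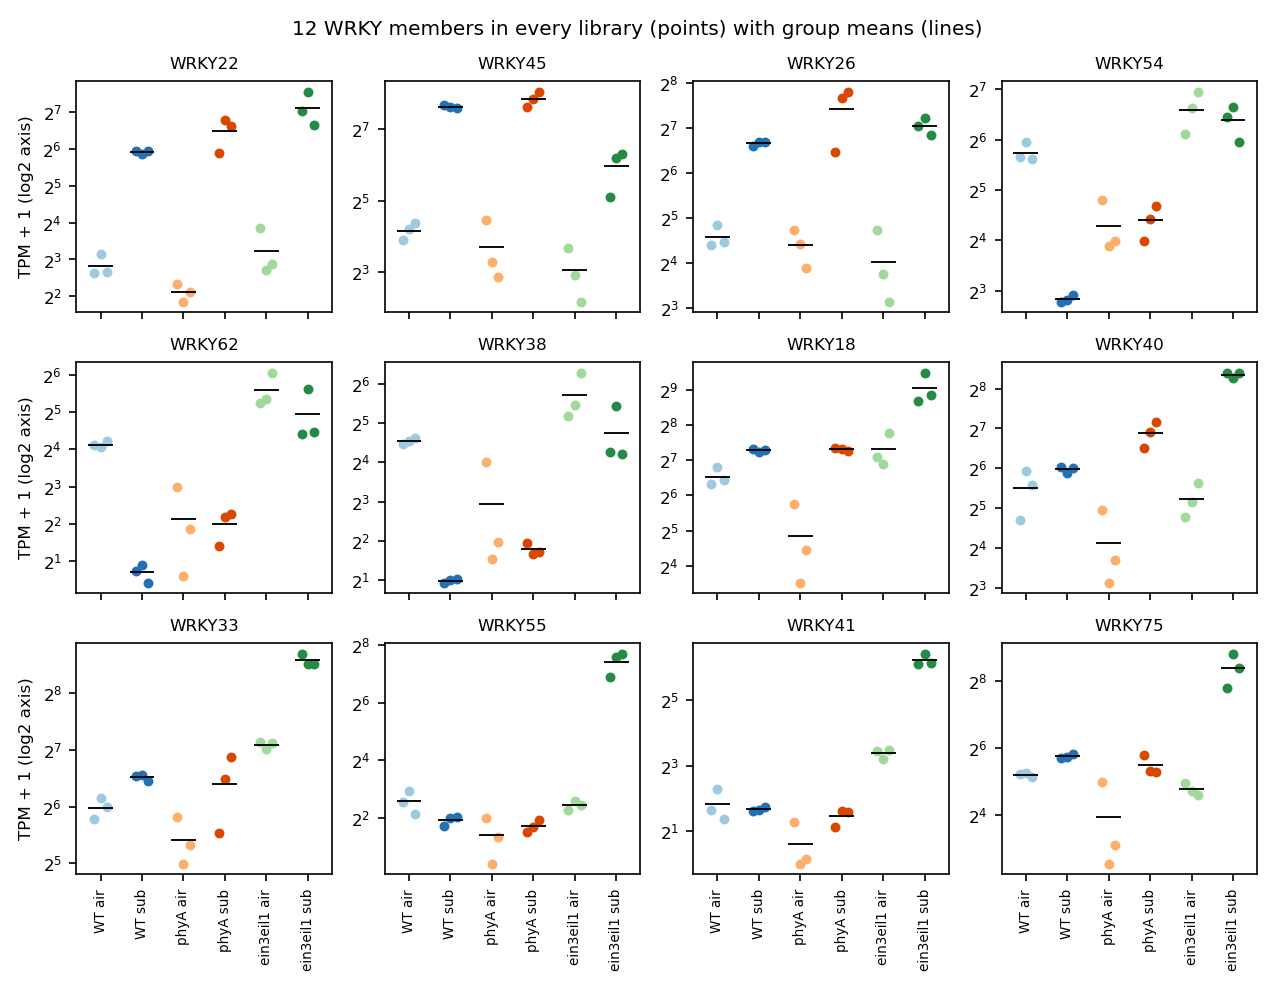
TPM + 1 on a log2 axis for 12 members in every library (points) with the group mean (line), for wild type, phyA-211 and ein3eil1 in air and under water (sub). WRKY22, WRKY45 and WRKY26 are high in all submerged groups, WRKY54, WRKY62 and WRKY38 are lowest or nearly so in submerged wild type or phyA-211, and WRKY33, WRKY55, WRKY41 and WRKY75 stand out in submerged ein3eil1.

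The responses themselves were compared between lines with interaction terms, in which the mutant comparisons share the wild-type libraries. The response of phyA-211 minus that of wild type was called positive in 19 members and called negative in none (34.5%, against 20.4% and 4.19% of all tested genes), or 10 and 1 after median centring (all genes 6% and 11.7%). The count was 31 without submerged phyA-211 replicate 1, and 10 without replicate 2 or replicate 3. That of ein3eil1 minus wild type was called positive in 24 and negative in 1 (43.6% and 1.82%, against 10.8% and 16.6%), or 29 and 3 after centring (13.1% and 13.1%). Without WRKY59 and WRKY67 these were 22 and 1 of 53. The response of phyA-211 minus that of ein3eil1 was called positive in 12 and negative in 12 (21.8% each, against 37.7% and 8.82%), or 5 and 17 after centring (12% and 16.6%). Without WRKY59 and WRKY67 these were 12 and 10 of 53. All 3 group IIa genes were positive for phyA-211 minus wild type: WRKY18 at 1.97 ± 0.56, WRKY40 at 2.36 ± 0.53 and WRKY60 at 1.89 ± 0.42 (adjusted p = 0.0267, 0.013 and 0.0113). WRKY18 lost that call after median centring, at 1.44.

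By known roles, the oxygen-related members behaved unlike each other. WRKY33, reported to act with WRKY12 on the hypoxia regulator gene RAP2.2, stood at 53.6, 69.7 and 62.8 TPM in wild-type air and 91.7, 93.4 and 86.9 TPM under water, a change that did not pass (0.55 ± 0.26, adjusted p = 0.0838) except after centring. In ein3eil1 it went from 139, 128 and 137 to 413, 367 and 364 TPM (1.49 ± 0.26, adjusted p = 0.000137) and in phyA-211 from 55.2, 30.7 and 38.9 to 45.2, 88.8 and 116 TPM (0.92 ± 0.26, adjusted p = 0.00745), where submerged replicate 1 lies within the range of the air libraries. WRKY33 overlaps AT2G38480 and AT2G08965 on the opposite strand, which had means of at most 4.95 TPM and 3.06 TPM in any group. WRKY12 was near or below 1 TPM in every group except ein3eil1 air (2.59 ± 1.26 TPM) and was called lower under water in ein3eil1 (-1.10 ± 0.28, adjusted p = 0.00281), a call lost after centring. WRKY12 passed the filter through the ein3eil1 air libraries (2.39, 1.45 and 3.94 TPM) and submerged ein3eil1 replicate 1 (1.12 TPM). This call is therefore no support, and the count of members called lower there includes it.

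Of the heat-related trio, WRKY26 rose in every line, as given above, whereas WRKY25 was at 51.5, 57.1 and 58 TPM in wild-type air and 52.4, 52.3 and 47.5 TPM under water (-0.13 ± 0.17, adjusted p = 0.536). In ein3eil1 WRKY25 rose from 60.6, 66.2 and 65.7 to 316, 295 and 261 TPM (2.16 ± 0.17, adjusted p = 3.43e-08), and the difference of the responses was 2.29 ± 0.24 (adjusted p = 6.73e-06). WRKY25 was also called higher in phyA-211, from 34.3 ± 3.72 to 67.5 ± 18.8 TPM (0.92 ± 0.17, adjusted p = 0.000263). WRKY15, of mitochondrial stress signalling, rose from 57.2, 73.6 and 69 to 135, 123 and 131 TPM in wild type (0.96 ± 0.18, adjusted p = 0.0004) and from 97.3, 77.9 and 81.9 to 423, 417 and 439.9 TPM in ein3eil1 (2.31 ± 0.18, adjusted p = 4.43e-08). In every line the air and submerged libraries of WRKY15 do not overlap.

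The phosphate-related members also went separate ways. WRKY45 rose in all lines and WRKY75 was called higher in both mutants but not in wild type (36.2, 37.4 and 33.9 to 50.9, 52.6 and 55 TPM, 0.55 ± 0.43, adjusted p = 0.285). WRKY6 stood at 15.8, 18 and 17.8 TPM in wild-type air and 9.84, 10.4 and 10.4 TPM under water (-0.70 ± 0.34, adjusted p = 0.0937), and rose in phyA-211 from 9.78, 6.07 and 6.55 to 14.9, 48.3 and 57.6 TPM (2.11 ± 0.34, adjusted p = 8.92e-05) and in ein3eil1 from 39.9, 30.2 and 25.3 to 70.1, 71.8 and 71.3 TPM (1.16 ± 0.34, adjusted p = 0.00766). In wild type the WRKY6 libraries are all lower under water than in air, without passing the test. WRKY42 read 0.94, 1.19 and 1.03 TPM in wild-type air and 0.67, 0.6 and 0.61 TPM under water (-0.33 ± 0.13, adjusted p = 0.0441).

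Among salicylic acid and senescence genes, WRKY46 showed opposite calls. It went from 52, 103 and 84.5 to 31.9, 31.9 and 31.7 TPM in wild type (-1.24 ± 0.38, adjusted p = 0.0109) and from 98.2, 142 and 206 to 334, 246 and 284 TPM in ein3eil1 (1.00 ± 0.38, adjusted p = 0.0295), and read 61.5, 16.2 and 35.6 TPM in phyA-211 air and 43.4, 28.9 and 27.6 TPM under water, where the groups overlap. WRKY30, an early oxidative stress gene, went from 6.91, 13.3 and 11.1 to 4.14, 4.61 and 3.86 TPM in wild type (-1.09 ± 0.34, adjusted p = 0.0127) and from 7.5, 10.5 and 8.87 to 57.2, 32.5 and 40.6 TPM in ein3eil1 (2.13 ± 0.34, adjusted p = 6.09e-05). The falls of both in wild type lost their call after median centring. WRKY53 read 52.3, 55.7 and 56.6 TPM in wild-type air and 48.5, 48.9 and 48 TPM under water (-0.17 ± 0.35, adjusted p = 0.691), and 71.5, 80.3 and 101 TPM in ein3eil1 air and 43.5, 32 and 51.4 TPM under water, where it was called lower (-0.99 ± 0.35, adjusted p = 0.0214) except after centring. Its opposite-strand neighbour 3xHMG-box2 had means of 27.6 TPM in ein3eil1 air and 3.59 TPM under water. WRKY70 was called higher in phyA-211 (1.25 ± 0.35, adjusted p = 0.00715).

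Several members outside those groups are added here, chosen after their values were seen. WRKY48, a repressor of basal defence, was called lower in wild type (6.02, 10.9 and 6.83 to 3.96, 4.2 and 3.72 TPM, -0.81 ± 0.26, adjusted p = 0.0158) and higher in both mutants. In phyA-211 it went from 2.35, 1.78 and 2.42 to 2.7, 6.22 and 6.82 TPM (0.90 ± 0.26, adjusted p = 0.009) and from 11.2, 7.14 and 7.24 to 17.2, 18.2 and 20.5 TPM in ein3eil1 (1.07 ± 0.26, adjusted p = 0.00229). The wild-type call was lost after centring. WRKY28, reported to activate the salicylic acid gene ICS1, read 2.77, 8.28 and 6.37 TPM in wild-type air and 8.66, 8.69 and 7.33 TPM under water (0.53 ± 0.27, adjusted p = 0.108) and rose in ein3eil1 from 6.25, 5.2 and 3.02 to 41.8, 39.7 and 33.3 TPM (2.79 ± 0.27, adjusted p = 3.9e-07). In phyA-211 WRKY28 also rose, from 1.26 ± 0.278 to 5.32 ± 0.441 TPM (1.49 ± 0.27, adjusted p = 0.000276). WRKY11 and WRKY17, related group IId genes that hold back basal resistance, were called higher in both mutants. In ein3eil1 WRKY11 went from 74.3 ± 14.2 to 177 ± 16.6 TPM (1.26 ± 0.21, adjusted p = 0.000108) and WRKY17 from 19.4 ± 5.2 to 63.7 ± 8.95 TPM (1.69 ± 0.19, adjusted p = 2.14e-06).

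Besides WRKY55, the members called higher in ein3eil1 and uncalled in the other lines were WRKY31, WRKY59 and WRKY67. WRKY31 went from 4.55, 2.05 and 0.84 to 9.13, 29.5 and 11 TPM (2.30 ± 0.37, adjusted p = 6.51e-05). The other two became members only through submerged ein3eil1, so their calls are no support. WRKY59 read 0.44, 0.07 and 0.13 TPM in ein3eil1 air and 6.43, 9.39 and 10.8 TPM under water. WRKY67 read 0, 0.18 and 0.42 TPM in ein3eil1 air and 4.73, 13.7 and 1.59 TPM under water, with replicate 2 the highest. WRKY36, WRKY61 and WRKY70 were called higher in phyA-211 and in no other line. WRKY13, a regulator of stem lignification, and WRKY49 were called in no line, with group means of at most 1.69 TPM and 1.67 TPM.

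Genes that act with the WRKY factors were taken from lists of symbols. Of 14 immune receptor and MAP kinase genes tested, 1 was called higher and 6 lower by submergence in wild type, 7 and 1 in phyA-211, and 6 and 3 in ein3eil1. The shares of all tested genes were 18.9% and 38%, 27.3% and 23.9%, and 17% and 47.3%. After median centring the wild-type counts were 3 and 2 (all genes 32.2% and 22.3%). In submerged ein3eil1 10 of the 14 were above submerged wild type and none below (all genes 28.5% and 16%). MPK11, a MAP kinase gene, was at 183 ± 37.5 TPM there against 12.2 ± 0.299 TPM (3.78), and MPK3 was not called, at 126 ± 16.3 and 90.6 ± 3.1 TPM. The receptor gene FLS2 is not analysed here.

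Of 7 genes for VQ proteins, which bind WRKY factors, 4 were called higher and 1 lower in submerged ein3eil1 than in submerged wild type (all genes 28.5% and 16%). SIB1, a partner of WRKY33, stood at 231 ± 41.8 against 44.7 ± 3.29 TPM (2.33). SIB2 went the other way, at 43.7 ± 1.82 TPM in submerged ein3eil1 against 96.8 ± 9.26 TPM in submerged wild type. Of 25 genes on a list drawn up as downstream of WRKY factors, 4 were called higher and 12 lower in submerged wild type. In each mutant 12 were called higher and 4 lower, against the shares of all genes given for the receptor and kinase list. The list includes EDS1, PAD4, RBOHD, ERF5 and ERF6, and whether WRKY factors act on each listed gene was not tested. After median centring the wild-type counts were 5 and 8 (all genes 32.2% and 22.3%). In phyA-211 air 7 of the 25 were below wild type and none above (all genes 2.38% and 1.63%), among them the camalexin gene PAD3, with 25.8 ± 18.7 TPM against 119.9 ± 8.06 TPM (-2.38). In submerged ein3eil1 17 were above submerged wild type and 1 below (all genes 28.5% and 16%). ICS1, for the key enzyme of salicylic acid synthesis, had 308 ± 80.2 TPM there and 8.83 ± 0.673 TPM in wild type (log2 difference 4.95). PR1, a classical salicylic acid marker, had 479 ± 68.7 and 471 ± 9.66 TPM and was not called (0.01).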

How the data were processed

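The authors deposited 1 table of expression values per gene and library, without pooled columns. The labels name no unit, and TPM was read from the deposited values: they are not whole numbers, and each library adds up to between 996105 and 998620. The submitters' processing notes list TAIR10, HISAT2, DESeq2, fastp and cutadapt, per the labels; their versions and roles, the strand setting and the treatment of reads shared by related members are not given in the sources used here. Per the labels' protocols, polyadenylated RNA was enriched before random-primed cDNA synthesis. TPM keeps no depth, so each value's counting precision is unknown.

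A pseudocount of 1 TPM was added before taking log2. The 20302 genes that reached 1 TPM in 3 libraries or more entered 1 limma fit (version 3.58.1 in R 4.3.3) over all 18 libraries, with a mean per group, an intensity trend, robust moderation and no block. Tests were two-sided, with Benjamini-Hochberg adjustment over those genes and a threshold of 0.05. The fit was tested on simulated data. RefSeq TAIR10.1 gave names (32548 of 32833 genes and all 55 members matched), overlaps, neighbours and the 250 bases before each gene start. Domain groups follow the published classification.

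Genes named with values were the 5 largest called changes of each sign per line under submergence, the 3 largest per sign in the other comparisons, and members listed by role (WRKY6, WRKY12, WRKY15, WRKY18, WRKY22, WRKY25, WRKY26, WRKY30, WRKY33, WRKY40, WRKY42, WRKY45, WRKY46, WRKY53, WRKY54, WRKY60, WRKY70 and WRKY75). The members, lists and tests were chosen with earlier results of these data known. Alternatives covered the pseudocount (0.1, 0.5), the filter (none, or a mean of at least 2 TPM), scaling, the libraries in the fit, weights, a replicate block and leaving out each library.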

Additional observations from a re-analysis of the deposited data

Results flagged for a closer look

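The submergence response differed between lines, by a test of the interaction term, in these members. Values are differences of log2 changes ± SE, with limma's adjusted p. For phyA-211 minus wild type they were WRKY62 at 3.58 ± 0.66, adjusted p = 0.00484, WRKY54 at 3.04 ± 0.37, adjusted p = 0.00023 and WRKY38 at 2.84 ± 0.68, adjusted p = 0.0163. In these 3, the wild-type response was between -2.90 and -3.56 and that of phyA-211 between -0.73 and 0.15. Their levels already differed in air. WRKY62, WRKY54 and WRKY38 had means of 3.37, 18.5 and 6.67 TPM in phyA-211 air and 16.5, 52.6 and 22.4 TPM in wild-type air. The part of these lower starting levels in the differences was not tested.

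For ein3eil1 minus wild type they were WRKY55 at 5.59 ± 0.46, adjusted p = 6.58e-07, WRKY30 at 3.23 ± 0.48, adjusted p = 0.000191, WRKY51 at 3.15 ± 0.74, adjusted p = 0.00541 and, in the other direction, WRKY21 at -0.99 ± 0.17, adjusted p = 0.000542. For phyA-211 minus ein3eil1 they were WRKY53 at 1.84 ± 0.49, adjusted p = 0.00825, WRKY57 at 1.47 ± 0.40, adjusted p = 0.00834 and WRKY70 at 1.46 ± 0.49, adjusted p = 0.0255, with WRKY55 at -4.49 ± 0.46, adjusted p = 5.61e-06, WRKY30 at -2.71 ± 0.48, adjusted p = 0.000666 and WRKY67 at -2.62 in the opposite direction. WRKY67 was at 0 in every submerged phyA-211 library and at 4.73, 13.7 and 1.59 TPM in submerged ein3eil1, so its fitted value is no bound. It became a member only through the submerged ein3eil1 libraries, and its value is a description. WRKY70 lost its call in 7 of 22 alternatives and WRKY57 in 1, and the other 10 besides WRKY67 kept theirs in every one.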

How the results depend on the processing

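TPM without counts gives no sampling error, and low members such as WRKY12 and WRKY42 are the least certain. Over 28 alternative settings the 58 named fold changes gave 968 refitted values, of which none reversed sign and 70 missed the threshold.

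Median centring moved the members called under submergence to 20 higher and 10 lower in wild type and to 4 lower in ein3eil1, those called in ein3eil1 air to 4 and those of the phyA-211 minus wild type response to 11. Quantile normalization gave 11 lower in wild type, 7 lower in ein3eil1, 9 called in submerged phyA-211 against wild type, 4 in ein3eil1 air and 11 for the phyA-211 minus wild type response. With only the compared groups the counts were 6 in phyA-211 air, 5 in submerged phyA-211 and 24 in ein3eil1 air, and with weights per group 5 in submerged phyA-211 and 27 in ein3eil1 air. Those last 2 settings estimate the residual spread differently by construction; otherwise the cause was not tested. The replicate block gave 8 called in phyA-211 air, against 13, and moved no other count by over 1.5 times. Deviations of same-numbered libraries correlated at over 0.1 in 7 of 45 pairs, with 0.438, 0.201 and 0.0899 for replicates 1 to 3 between phyA-211 in air and under water. No 2 groups had all 3 over 0.1, so the numbers were not taken to pair libraries. Differently numbered libraries were not compared in this way, so a pairing within phyA-211 was not tested. With both phyA-211 libraries numbered 1 left out, a setting added after the data were seen, 26 were called in phyA-211 air and 38 for the phyA-211 minus wild type response. The share of all tested genes called was not counted in that setting. It was counted only for the main fit, median centring and quantile normalization. The other counts therefore do not show whether the family moved more than genes at large.

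Leaving out 1 library at a time gave, under submergence, 6 to 10 higher and 13 to 15 lower in wild type, 24 to 31 and 3 to 6 in phyA-211, and 25 to 28 and 12 to 14 in ein3eil1. It gave 5 to 21 called in phyA-211 air, 2 to 24 in submerged phyA-211, 7 to 10 in ein3eil1 air and 33 to 35 in submerged ein3eil1. For the responses it gave 10 to 31 (phyA-211 minus wild type, 10 without submerged phyA-211 replicate 2 and 31 without replicate 1), 23 to 29 (ein3eil1 minus wild type) and 18 to 29 (phyA-211 minus ein3eil1). Adding the 5 genes with other names, also after the data were seen, gave 38 higher and 3 lower of 60 in submerged ein3eil1 against wild type and 1 higher and 13 lower in phyA-211 air.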

Other observations

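Of the 5 WRKY-domain genes listed under other names, ABO3 (WRKY63), known from abscisic acid responses, was singled out after its values were seen. It stood at 8.09 ± 3.2 TPM in ein3eil1 air and 147 ± 39.9 TPM in submerged ein3eil1 (4.04, adjusted p = 4.26e-07), against 5.62 ± 2.33 and 4.34 ± 0.311 TPM in wild type. TTG2 (WRKY44), of trichome and seed coat development, had a mean of 2.54 ± 0.834 TPM in wild-type air and 0.887 ± 0.376 TPM under water, 7.27 ± 1.15 and 0.583 ± 0.24 TPM in phyA-211, and 9.23 ± 1.53 and 1.58 ± 0.17 TPM in ein3eil1. VQ29, a VQ protein gene also singled out after its values were seen, was at 0.253 ± 0.105 TPM in ein3eil1 air and 60.7 ± 8.28 TPM under water, against 0.43 ± 0.165 and 2.58 ± 0.197 TPM in wild type.

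The W-box motifs TTGACC or TTGACT lay in 16 of the 35 promoters of members called higher in submerged ein3eil1 than in submerged wild type (45.7%) and in 6 of the other 20 (30%). The 35 include WRKY59 and WRKY67, members only through submerged ein3eil1, and WRKY67 is among the 16. This is a description of 250 bases per gene, with no test.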
